A study of Mus musculus with 26 samples.

Results

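The genes *Olig1*, *Olig2*, *Sox10*, *Pdgfra*, *Cspg4*, *Mbp*, *Mog*, *Cnp* and *Gpr17* mark the oligodendrocyte lineage, from its precursors to myelinating cells. Their expression was followed on arrays while mouse neurospheres (NSPs) differentiated toward astrocytes with or without tumor necrosis factor (TNF). The 9 genes were taken by name, as the probe sets to which the platform annotation gives that symbol and no other. No measured value entered this rule, but the genes were chosen with earlier results of these data known. Each gene was represented by 1 probe set, and they are 9 of 19938 genes that had a probe set with 1 symbol. NSPs were grown with EGF from neural stem cells of the ventricular zone of C57BL/6J embryos at embryonic day 14 (E14), and no genetic change is named for any group. At 0 h the spheres were plated on poly-L-ornithine in DMEM with 10% fetal bovine serum (called FCS in the labels), penicillin and streptomycin. Untreated NSPs (labelled control) give 3 arrays for each of 0, 6, 24, 48 and 72 h. NSPs that received TNF (50 ng/mL) at 0 h give 3 arrays for each of 6, 24 and 48 h, and 2 for 72 h. The series calls its replicates biological, and whether embryos were pooled is not given in the sources used here. Plating, serum, the end of EGF and time all separate the later cells from those at 0 h, so their parts in the untreated course cannot be told apart.

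Oligodendrocytes arise from neural progenitors that carry the basic helix-loop-helix factors OLIG2 and OLIG1. Their precursors show the receptor PDGFRα and the proteoglycan NG2 (*Cspg4*) on the surface, pass through a stage with the receptor GPR17, and switch on myelin genes such as *Cnp*, *Mbp* and *Mog* under the factor SOX10. *Olig2* is also active in progenitors that make neurons or astrocytes, *Cspg4* in pericytes, and *Cnp* in cells other than oligodendrocytes, so that none of these 3 genes is particular to the lineage. Serum is known to direct precursors in culture toward astrocytes.

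In GRCm38.p6, *Olig2* lies on chromosome 16 from 91225550 to 91228677 and *Olig1* on the same chromosome from 91269769 to 91271939. *Cspg4* lies on chromosome 9 from 56865104 to 56899870, *Pdgfra* on chromosome 5 from 75151322 to 75198206 and *Sox10* on chromosome 15 from 79154913 to 79164490. *Cnp* lies on chromosome 11 from 100574909 to 100591875 and *Mog* on chromosome 17 from 37010740 to 37023398. The probe sets are 10436823 (*Olig2*), 10436828 (*Olig1*), 10585588 (*Cspg4*), 10522503 (*Pdgfra*), 10430458 (*Sox10*), 10381154 (*Cnp*), 10450845 (*Mog*), 10457022 (*Mbp*) and 10457963 (*Gpr17*).

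RefSeq promoter windows were at hand for 5 of the 9 genes, namely *Olig2*, *Pdgfra*, *Cspg4*, *Mog* and *Cnp*. Those of *Olig2* and *Cspg4* are shown because both genes fell in untreated NSPs at every later time, as described below. Each line gives the 250 bases upstream of the annotated start, 5′ to 3′ on the plus strand of GRCm38.p6. Capitals mark a match to the letters of the TATA box motif (TATAAA) in *Olig2* and a match to the NF-κB motif in *Cspg4*.
Olig2 promoter, chr16:91225300-91225549: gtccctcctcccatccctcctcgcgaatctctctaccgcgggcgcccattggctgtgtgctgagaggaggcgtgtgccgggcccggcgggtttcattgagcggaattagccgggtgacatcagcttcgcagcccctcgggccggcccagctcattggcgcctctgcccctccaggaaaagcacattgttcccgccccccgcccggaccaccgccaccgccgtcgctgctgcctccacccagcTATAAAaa
Cspg4 promoter, chr9:56864854-56865103: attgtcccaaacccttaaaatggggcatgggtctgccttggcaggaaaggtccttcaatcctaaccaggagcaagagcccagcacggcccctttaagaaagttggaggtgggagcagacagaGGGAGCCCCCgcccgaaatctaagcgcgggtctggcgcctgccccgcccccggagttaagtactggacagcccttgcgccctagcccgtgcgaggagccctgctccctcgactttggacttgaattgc
Both strands of these windows were searched for the E-box bound by OLIG factors, which reads CANNTG. The motif of SOX10 and its relatives (SOXE) was searched as ACAAAG. The TATA box and the NF-κB motif were the others, and matches of different motifs were counted separately, also where their letters overlap. The *Olig2* window (GC content 66.8%) held 1 TATAAA, whose first base is 8 bases before the start, and 0 matches to each of the other motifs. The *Cspg4* window (GC content 60.4%) held 1 NF-κB match, whose first base is 128 bases before the start, and 0 E-boxes, SOXE motifs and TATA boxes. Among 32851 promoter windows of this length in the table, 66.2% held an E-box, 16.5% a SOXE motif, 12.4% a TATAAA and 7.25% an NF-κB match. A match describes the letters of the window and does not show that a factor binds there.

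Values below are log2 signals that the authors made with RMA (background correction, a common distribution for all arrays, and summary of the probes of a probe set), so that a difference of 1 is a 2-fold change in signal. The differences come from limma over all 35556 probe sets and 26 arrays, with the standard error (SE), and a gene is said to rise or fall where q, computed over the whole table, was below 0.05. Levels of single genes were not compared with each other. Probe sets among the dimmest 40% by mean signal were marked, and levels of markers were averaged by list. Array medians ran from 7.54 to 7.76 and correlations between arrays from 0.947 to 0.996. The astrocyte marker *Gfap* was higher than at 0 h by 2.49 at 6 h (SE 0.262, q = 2.15e-06) and by 4.54 at 72 h (q = 1.51e-10). Of 8 astrocyte markers, 1 was called higher and 1 lower at 6 h, with 6 differences below 0 and a median of −0.37. At 72 h 3 were called higher and 0 lower, with a median of 0.21. Among all probe sets, 4.64% rose and 3.03% fell at 6 h, and 12.6% and 10.2% at 72 h. These are bulk samples, so that fewer cells of the lineage and less of a transcript per cell cannot be told apart.

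Arrays with the same replicate number resembled each other, and this touches several of the 9 genes. Replicate 2 was the lowest array in 8 of 8 groups of 3 arrays for *Gpr17* and in 7 of 8 for *Olig2*, *Sox10*, *Pdgfra* and *Cnp*. Cell cycle genes also differed between replicates at the start, where *Mki67*, a proliferation marker, was at 7.71, 11.92 and 10.37 at 0 h in replicates 1, 2 and 3. The TNF array of 72 h labelled replicate 2 did not share this pattern, with *Mki67* at 6.43 and *Pdgfra* at 9.11, where other replicate 2 arrays had *Pdgfra* between 8.15 and 8.60. Over all probe sets, the difference between replicates 2 and 1 with TNF correlated with that in untreated NSPs by r = 0.617, 0.507 and 0.551 for 6, 24 and 48 h. For 72 h the value was 0.0294 (35556 probe sets, which are not independent). With the untreated difference between replicates 3 and 1, the values were 0.352, 0.171, 0.255 and 0.115 for 6, 24, 48 and 72 h. Counts are therefore also given without the arrays numbered 2, a setting chosen after the data were seen. At 72 h it leaves a single TNF array, as does leaving out either TNF array of that time. The series lists its arrays replicate by replicate, except that the TNF array of 72 h labelled replicate 2 comes last, after those of replicate 3. Whether this array comes from the culture of replicate 3 was not tested. Its label was kept in every setting that uses the replicate number, so those settings may misplace it at 72 h. The part of these replicate differences in the results was not tested further.

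In untreated NSPs *Olig1*, *Olig2* and *Cspg4* fell within 6 h and stayed low to 72 h. *Gpr17* fell at 3 of 4 times, and *Cnp* fell at 6 h and came back to its starting level. The levels of *Sox10*, *Mbp*, *Mog* and the precursor gene *Pdgfra* did not pass the test at any time. The number of the 9 genes that fell was 5 after 6 h, 4 after 24 h, 3 after 48 h and 4 after 72 h, while 0 rose. Among all probe sets, 3.03%, 6.51%, 6.97% and 10.2% fell at these times and 4.64%, 10%, 8.99% and 12.6% rose. The median difference of the 9 genes was −0.85, −0.48, −0.23 and −0.19 in the same order, beside −0.02, −0.05, −0.04 and −0.05 over all probe sets. Without the arrays numbered 2, 6 of the 9 genes were called at 6 and 24 h and 4 at 48 and 72 h. With only the arrays compared in the fit, 1 gene (*Olig1*) was called at 6 h in place of 5. The 6 h count was also 2 without replicate 1 or replicate 2 of the untreated 6 h arrays, and 3 without replicate 3 of 0 h or of 6 h. Counts under such settings, here and below, have no share over all probe sets beside them. Their shifts from the main fit therefore cannot be read as particular to the genes counted.

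**Figure D1:**
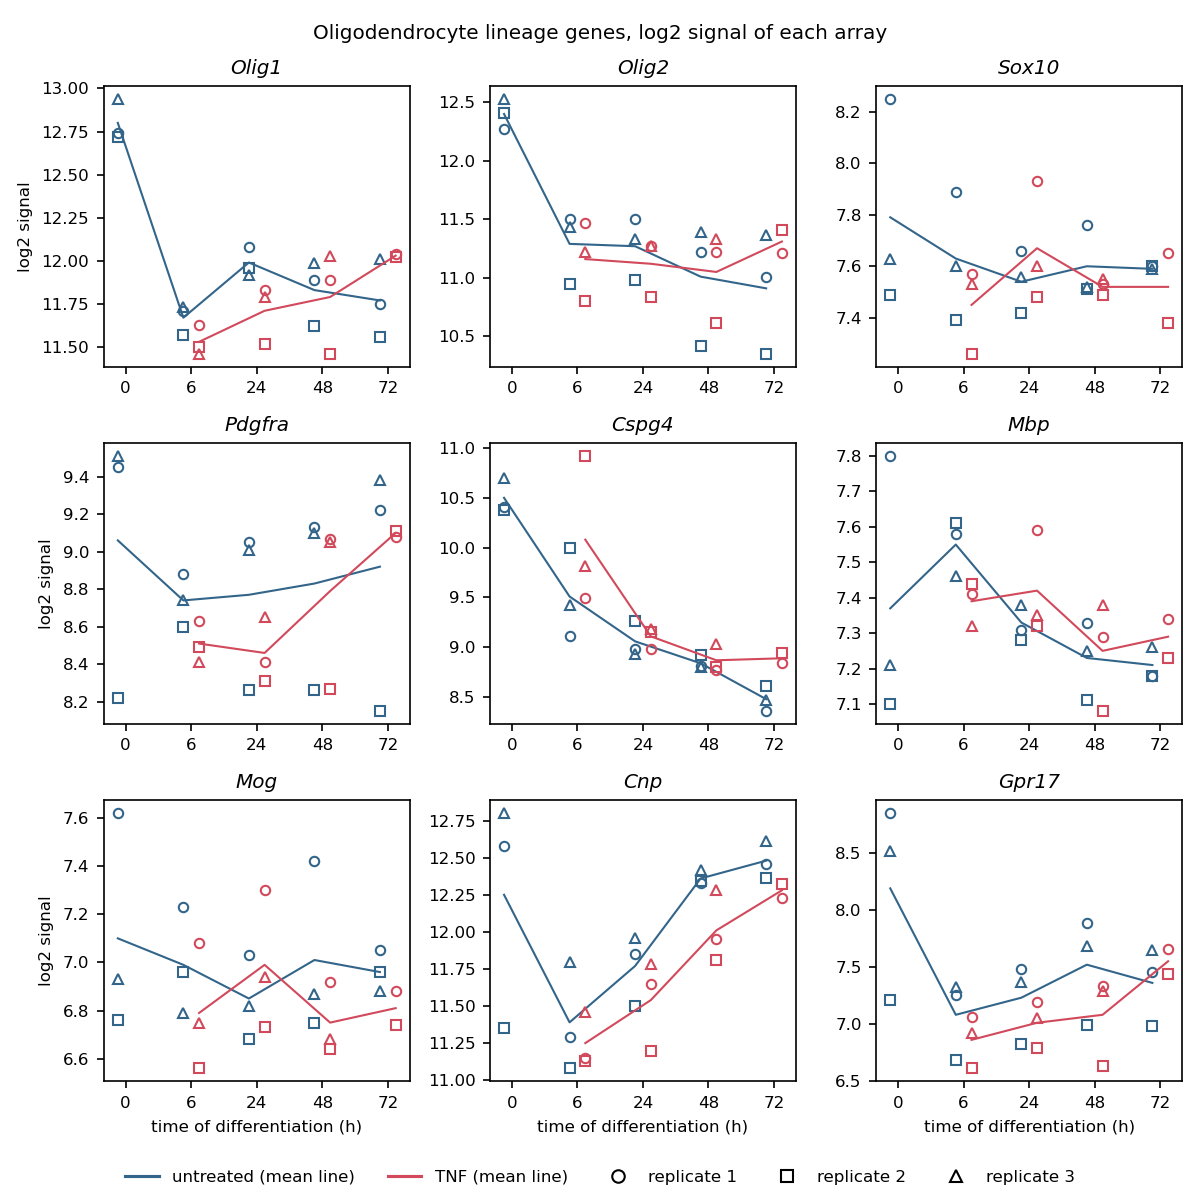
Log2 signal (vertical axis, a separate scale for each gene) of every array against time of differentiation in hours (times drawn evenly spaced) for the 9 genes, with circles, squares and triangles for replicates 1, 2 and 3 and lines through the group means of untreated (blue) and TNF-treated NSPs (red). *Olig1*, *Olig2* and *Cspg4* drop after 0 h in every replicate of untreated NSPs, while the TNF array of *Cspg4* in replicate 2 at 6 h (10.92) lies above the 0 h arrays, and squares lie lowest in most groups of *Pdgfra*, *Gpr17* and *Olig2*.

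*Olig1*, which encodes a factor of the lineage that promotes precursor formation and maturation, was at 12.74, 12.72 and 12.94 at 0 h in replicates 1, 2 and 3. Untreated NSPs had 11.71, 11.57 and 11.73 after 6 h, then 12.08, 11.96 and 11.92 after 24 h. They had 11.89, 11.62 and 11.99 after 48 h, then 11.75, 11.56 and 12.01 after 72 h. Every later array was lower than every array at 0 h. *Olig1* fell by 1.13 within 6 h (SE 0.139, q = 1.45e-05), a 2.19-fold lower signal. Its later differences from 0 h were −0.81 after 24 h (q = 0.000239), −0.97 after 48 h (q = 3.5e-05) and −1.03 after 72 h (q = 1.01e-05). Most of the drop was thus reached at 6 h, and the group means were 11.67, 11.99, 11.83 and 11.77 at the 4 later times, against 12.80 at 0 h.

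*Olig2*, whose product specifies the lineage, was at 12.27, 12.41 and 12.53 at 0 h. Untreated NSPs had 11.50, 10.95 and 11.43 after 6 h, then 11.50, 10.98 and 11.33 after 24 h. They had 11.22, 10.42 and 11.39 after 48 h, then 11.01, 10.35 and 11.37 after 72 h. All of these later arrays lay below those of 0 h, and the replicate 2 array was the lowest at each later time although not at 0 h. *Olig2* fell by 1.11 within 6 h (SE 0.268, q = 0.0102), and its difference from 0 h was −1.13 after 24 h (q = 0.00399) and −1.39 after 48 h (q = 0.000769). It reached −1.49 after 72 h (q = 0.000221), a 2.81-fold lower signal. The 72 h difference was −1.26, −2.05 and −1.16 within replicates 1, 2 and 3. The call at 6 h was lost without replicate 2 of the untreated 6 h arrays (fell by 0.94, q = 0.0686). The group means of 6 h (11.29) and 24 h (11.27) differed by less than their SDs of 0.30 and 0.27.

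*Sox10*, the factor that switches on myelin genes, differed little between times. It was at 8.25, 7.49 and 7.63 at 0 h, and the untreated group means of the later times were 7.63 (SD 0.25), 7.54 (SD 0.12), 7.60 (SD 0.14) and 7.59 (SD 0.01). Replicate 1 at 0 h was above all other arrays, while the remaining 0 h arrays lay among those of later times. The difference from 0 h was −0.25 at 24 h (95% interval −0.59 to 0.10, q = 0.181) and −0.19 at 72 h (95% interval −0.54 to 0.15, q = 0.226). Without replicate 1 of 0 h the 72 h value was 0.04 (q = 0.578).

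*Cspg4*, which encodes the NG2 proteoglycan of precursors and pericytes, had the widest range of group means among the 9 genes. It was at 10.41, 10.38 and 10.70 at 0 h. Untreated NSPs had 9.11, 10.00 and 9.42 after 6 h, then 8.98, 9.26 and 8.93 after 24 h. They had 8.81, 8.92 and 8.80 after 48 h, then 8.36, 8.61 and 8.47 after 72 h. Each later array was below those of 0 h, and each 72 h array was below each 48 h array. *Cspg4* fell by 0.99 within 6 h (SE 0.247, q = 0.0127), and its difference from 0 h was −1.44 after 24 h (q = 0.00025) and −1.65 after 48 h (q = 5.41e-05). It reached −2.01 after 72 h (q = 2.99e-06), a 4.04-fold lower signal. Replicate 2, in contrast to its place in *Olig2*, was the highest array at each later time, and its difference at 6 h was −0.38 beside −1.30 and −1.28 in replicates 1 and 3. The 6 h call was lost without replicate 1 (fell by 0.79, q = 0.0657) or replicate 3 (fell by 0.94, q = 0.0647) of the untreated 6 h arrays.

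Because pericytes and fibroblasts also carry *Cspg4* or *Pdgfra*, markers of these cells were read beside it. Of 7 mural markers, 4 lay among the dimmest 40% of probe sets, and the mean of the list per array went from 7.15 to 7.50 at 0 h to 7.95 to 8.10 at 72 h. *Acta2*, a smooth muscle actin that astrocytes in serum can also make, was higher by 4.09 at 72 h (SE 0.356, q = 3.31e-08) and *Rgs5* by 0.55 (q = 0.000775). *Pdgfrb*, the pericyte receptor, had a difference of 0.25 (q = 0.254) and *Tagln*, another smooth muscle gene, of 1.11 (q = 0.0767). The channel genes *Kcnj8* and *Abcc9* and the smooth muscle myosin *Myh11* had differences of −0.18, −0.23 and −0.21 (q = 0.24, 0.16 and 0.0972), so that 4 of the 7 differences were above 0 and their median was 0.25, and the mean moved mainly with *Acta2*. The 5 fibroblast markers had array means of 6.88 to 7.50 at 0 h and 6.91 to 6.97 at 72 h, with 0 called at any of the 4 times. The part of such cells in its level was not tested further.

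*Pdgfra*, which encodes the receptor for the precursor growth factor PDGF-A, was at 9.45, 8.22 and 9.51 at 0 h. It was at 8.88, 8.60 and 8.74 after 6 h, then at 9.05, 8.26 and 9.01 after 24 h. It was at 9.13, 8.26 and 9.10 after 48 h, then at 9.22, 8.15 and 9.38 after 72 h. Replicate 2 thus stayed between 8.15 and 8.60, and replicates 1 and 3 dipped at 6 h and returned in part. The difference from 0 h was −0.32 at 6 h (SE 0.338, q = 0.561) and −0.15 at 72 h (95% interval −0.85 to 0.56, q = 0.392). Without the arrays numbered 2, *Pdgfra* fell by 0.67 at 6 h (q = 0.0044) and by 0.46 at 24 h (q = 0.0243).

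*Gpr17*, which encodes a receptor seen briefly in committed precursors, was at 8.85, 7.21 and 8.52 at 0 h. It was at 7.25, 6.68 and 7.32 after 6 h, then at 7.48, 6.82 and 7.37 after 24 h. It was at 7.89, 6.99 and 7.68 after 48 h, then at 7.46, 6.98 and 7.65 after 72 h. Replicate 2 at 0 h lay below the later arrays of the other replicates, so that the groups overlapped, but *Gpr17* was lower than at 0 h within each replicate at 6, 48 and 72 h, the times at which the replicate numbers pair the arrays. It fell by 1.11 within 6 h (SE 0.329, q = 0.0347), with differences from 0 h of −0.96 after 24 h (q = 0.0318) and −0.83 after 72 h (q = 0.0447). At 48 h the difference was −0.67 (q = 0.14), and with the replicate number as a block, it passed the test (q = 0.00608). The 72 h difference was −1.39, −0.23 and −0.87 within replicates 1, 2 and 3. Each call of *Gpr17* could be lost with 1 array. Without replicate 1 of 0 h the values were −0.78 (q = 0.154), −0.64 (q = 0.172) and −0.50 (q = 0.232) at 6, 24 and 72 h. The calls at these times were also lost without replicate 3 of 0 h (q = 0.0926, 0.0683 and 0.0876), without any 1 array of 6 h or of 72 h, and without replicate 2 or 3 of 24 h. Without replicate 2 of 0 h, on the other hand, the 48 h value was −1.16 (q = 0.00511). Calls also failed with the Benjamini-Hochberg adjustment at 24 h (adjusted p = 0.0646) and 72 h (adjusted p = 0.0922). With only the arrays compared in the fit, the calls at 6, 24 and 72 h were lost (q = 0.368, 0.179 and 0.176).

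*Cnp*, which encodes a phosphodiesterase abundant in myelin, was at 12.58, 11.35 and 12.80 at 0 h. It was at 11.29, 11.08 and 11.80 after 6 h, then at 11.85, 11.50 and 11.96 after 24 h. It was at 12.33, 12.34 and 12.42 after 48 h, then at 12.46, 12.36 and 12.61 after 72 h. The level was thus lowest at 6 h and returned by 48 h, when the arrays lay closer together (SD 0.05) than at 0 h (SD 0.78). *Cnp* fell by 0.85 within 6 h (SE 0.265, q = 0.0432), and its differences were −0.48 after 24 h (q = 0.133), 0.12 after 48 h (q = 0.554) and 0.23 after 72 h (95% interval −0.32 to 0.79, q = 0.289). The 6 h call was lost with the Benjamini-Hochberg adjustment (adjusted p = 0.0577), without replicate 1 or 3 of 0 h (q = 0.145 and 0.151) and without replicate 1 or 2 of 6 h (q = 0.101 and 0.195). At 24 h it was called without replicate 2 of 0 h (fell by 0.93, q = 0.00211). Within replicates, replicate 2 alone was higher at 72 h than at 0 h (1.01, beside −0.12 and −0.19 in replicates 1 and 3). Without the arrays numbered 2, *Cnp* also fell at 24 h (by 0.79, q = 0.0131), and its 72 h value was −0.16 (q = 0.282).

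*Mbp*, on chromosome 18 like *Gpr17*, and *Mog*, which encode the myelin basic protein and a glycoprotein of the outer myelin surface, stayed near the dim end of the array. *Mog* (mean 6.92 over all arrays) was below 7.14, the level under which 40% of probe sets lie, and is the gene among the 9 that failed this filter. *Mbp* was at 7.80, 7.10 and 7.21 at 0 h and at 7.18, 7.18 and 7.26 at 72 h, and *Mog* was at 7.62, 6.76 and 6.93 and at 7.05, 6.96 and 6.88. For both genes replicate 1 of 0 h was the highest array of all, and at 72 h the arrays overlapped with those of 0 h. The untreated *Mbp* arrays of 6 h (7.58, 7.61 and 7.46) lay above all untreated arrays of 24, 48 and 72 h and above replicates 2 and 3 of 0 h. The 72 h difference was −0.16 for *Mbp* (95% interval −0.44 to 0.11, q = 0.217) and −0.14 for *Mog* (95% interval −0.57 to 0.29, q = 0.335). Without replicate 1 of 0 h, *Mbp* was higher at 6 h by 0.39 (q = 0.0194) and the 72 h values were 0.05 and 0.12.

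Across all 26 arrays, with each group's mean removed, *Pdgfra* and *Gpr17* varied together most closely (r = 0.895), followed by *Sox10* and *Mog* (r = 0.875) and *Olig1* and *Olig2* (r = 0.869). *Cspg4* ran against *Sox10* (r = −0.532) and *Olig2* (r = −0.48). These values describe 26 arrays that share replicate numbers. The genes whose course over the 26 arrays was most like each member, group means included, were also listed for the 5 members whose means spanned more than 1. They were *Garem2*, *Tmem229a* and *Ctif* for *Olig1* (r = 0.939, 0.932 and 0.915), and *Lmo3*, *Gpsm1* and *Fzd9* for *Olig2* (r = 0.92, 0.917 and 0.915). For *Cspg4* they were *Alpl*, *Nptx1* and *Grasp* (r = 0.945, 0.937 and 0.932). For *Cnp* they were *Thra*, *Sfxn5* and *Zfp395* (r = 0.945, 0.924 and 0.922), and for *Gpr17* *Notch1*, *Dscaml1* and *Pde9a* (r = 0.926, 0.922 and 0.919).

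Exposure to TNF changed none of the 9 genes past the threshold at any time: 0 were called at the 4 times by q-value, with Benjamini-Hochberg adjustment, or under any other setting tried. Among all probe sets, 0.326%, 0.863%, 1.04% and 1.15% were called at these times. At an unadjusted p under 0.05, 1 of the 9 genes passed at 6 h and 0 at the later times, beside 1768, 1999, 2316 and 3402 of all 35556 probe sets. The median difference of the 9 genes was −0.16, −0.15, −0.04 and 0.18 in the order of the times, beside −0.04, 0.01, −0.02 and −0.02 over all probe sets. The differences between the TNF effect at 24, 48 or 72 h and that at 6 h were also called for 0 of the 9 genes, beside 0.0253%, 0.104% and 0.124% of all probe sets, and at an unadjusted p under 0.05 for 0 of them.

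**Figure D2:**
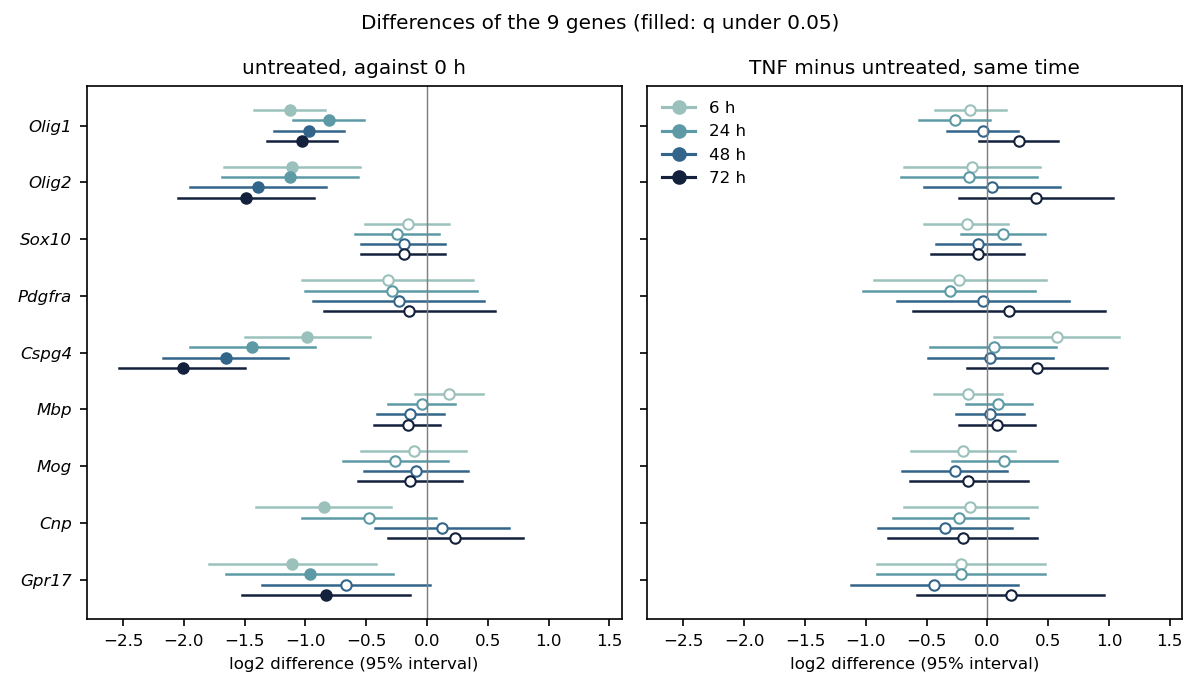
Log2 difference of each of the 9 genes from untreated NSPs at 0 h (left) and between TNF-treated and untreated NSPs of the same time (right), with 95% intervals from limma and 4 shades for 6, 24, 48 and 72 h. Filled points, with q under 0.05, lie only on the left and only below 0, and the intervals on the right include 0 except that of *Cspg4* at 6 h (0.05 to 1.08).

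The gene with an unadjusted p under 0.05 was *Cspg4* at 6 h, at 9.49, 10.92 and 9.82 with TNF against 9.11, 10.00 and 9.42 untreated. It was higher with TNF in 3 of 3 replicate pairs, by 0.38, 0.92 and 0.41, although the groups overlapped. The mean difference was 0.57 (SE 0.247, 95% interval 0.05 to 1.08, q = 0.87). It ran from 0.15 without TNF replicate 2 to 0.86 without TNF replicate 1. With TNF *Cspg4* was then at 8.98, 9.15 and 9.18 after 24 h, 8.77, 8.80 and 9.03 after 48 h, and 8.84 and 8.94 after 72 h. The 72 h difference was 0.41 (95% interval −0.17 to 0.98, q = 0.752), with both TNF arrays above the 3 untreated ones.

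*Olig1* with TNF was at 11.63, 11.50 and 11.46 after 6 h, then 11.83, 11.52 and 11.79 after 24 h, 11.89, 11.46 and 12.03 after 48 h, and 12.04 and 12.02 after 72 h. At 24 h all 3 TNF arrays lay below the untreated arrays and at 72 h both lay above them. The differences were −0.27 at 24 h (95% interval −0.56 to 0.02, q = 0.975) and 0.26 at 72 h (95% interval −0.07 to 0.58, q = 0.686). *Olig2* with TNF was at 11.47, 10.80 and 11.22 after 6 h, then 11.27, 10.84 and 11.27 after 24 h, 11.22, 10.61 and 11.33 after 48 h, and 11.21 and 11.41 after 72 h. Its largest difference was 0.40 at 72 h (95% interval −0.23 to 1.03, q = 0.806), where both TNF arrays lay within the range of the untreated ones or above it. This value was 0.12 without untreated replicate 2 and 0.02 without the arrays numbered 2, which leaves a single TNF array at 72 h. Both factors thus stayed below all arrays of 0 h in all TNF-treated NSPs.

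*Pdgfra* with TNF was at 8.63, 8.49 and 8.41 after 6 h, then 8.41, 8.31 and 8.65 after 24 h, 9.07, 8.27 and 9.05 after 48 h, and 9.08 and 9.11 after 72 h. Its differences ran from −0.31 at 24 h (95% interval −1.02 to 0.39) to 0.18 at 72 h (95% interval −0.61 to 0.97). Without the arrays numbered 2, which leaves a single TNF array at 72 h, the 72 h value was −0.22. *Gpr17* with TNF was at 7.06, 6.61 and 6.92 after 6 h, then 7.19, 6.79 and 7.05 after 24 h, 7.33, 6.63 and 7.29 after 48 h, and 7.66 and 7.44 after 72 h. At 6 h it was below the untreated array of its pair in 3 of 3 replicates, and the widest difference was −0.44 at 48 h (95% interval −1.12 to 0.25, q = 0.801).

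*Cnp* with TNF was at 11.15, 11.13 and 11.46 after 6 h, then 11.65, 11.20 and 11.78 after 24 h, 11.95, 11.81 and 12.28 after 48 h, and 12.23 and 12.32 after 72 h. All TNF arrays of 48 and 72 h lay below the untreated arrays of the same time, with differences of −0.35 (95% interval −0.90 to 0.20, q = 0.801) and −0.20 (95% interval −0.82 to 0.41, q = 0.944). For *Sox10*, *Mbp* and *Mog* the differences at the 4 times ran from −0.17 to 0.13, from −0.16 to 0.09 and from −0.27 to 0.14. *Mbp* at 6 h was at 7.41, 7.44 and 7.32 with TNF against 7.58, 7.61 and 7.46 untreated, so that the groups did not overlap, with a difference of −0.16 (q = 0.894). Intervals this wide leave room for changes of about the size of the *Olig1* drop in *Pdgfra*, *Gpr17*, *Olig2* (up to 1.03 at 72 h), *Cspg4* (up to 1.08 at 6 h) and *Cnp* (down to −0.90 at 48 h). The interval of *Mog* reached −0.70 at 48 h. Those of *Sox10* and *Mbp* stayed between −0.52 and 0.47 and between −0.44 and 0.39. Both genes had means over all arrays (7.59 and 7.34) near or below the array medians of 7.54 to 7.76. Without a detection call, their narrow intervals cannot exclude such a change of the transcript. A p that misses the threshold does not show that TNF had no effect.

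Related genes of the lineage were read from 4 lists of 107 genes, of which 102 were measured, the members themselves left out. Of 24 measured specification and precursor genes, 5, 3, 5 and 9 fell in the order of the times, against 3.03%, 6.51%, 6.97% and 10.2% of all probe sets, while 0, 1, 1 and 1 rose, against 4.64%, 10%, 8.99% and 12.6%. The list's median difference went from −0.19 at 6 h to −0.55 at 72 h, beside −0.02 and −0.05 over all probe sets. *Shc4*, an adaptor of receptor tyrosine kinases, was at 10.40, 10.70 and 10.69 at 0 h and at 8.29, 7.64 and 8.37 at 72 h, and fell by 2.50 (SE 0.195, q = 7.57e-09). *Dll3*, a Notch ligand of early precursors, fell by 1.86 at 72 h (q = 0.00124) and *Sox8*, a relative of *Sox10*, fell by 1.57 (q = 0.00274). *Tnr*, a matrix protein, fell by 1.45 (q = 0.0104) and *Zfp488*, a partner of OLIG2, fell by 1.18 (q = 0.00272), and *Tnr* lost this call without replicate 1 of 0 h. *C1ql1*, a secreted protein of precursors, rose instead, by 1.44 at 48 h (q = 0.000261) and 1.25 at 72 h (q = 0.000571). Without the arrays numbered 2, 9, 10, 8 and 11 genes of this list fell at the 4 times. With the replicate number as a block, 8 fell after 6 h, 9 after 48 h and 14 after 72 h. With only the arrays compared, 0, 1, 1 and 2 fell. *Dll3* and *Zfp488* then lost their 72 h calls (q = 0.0602 and 0.0712), as did *Tnr*.

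**Figure D3:**
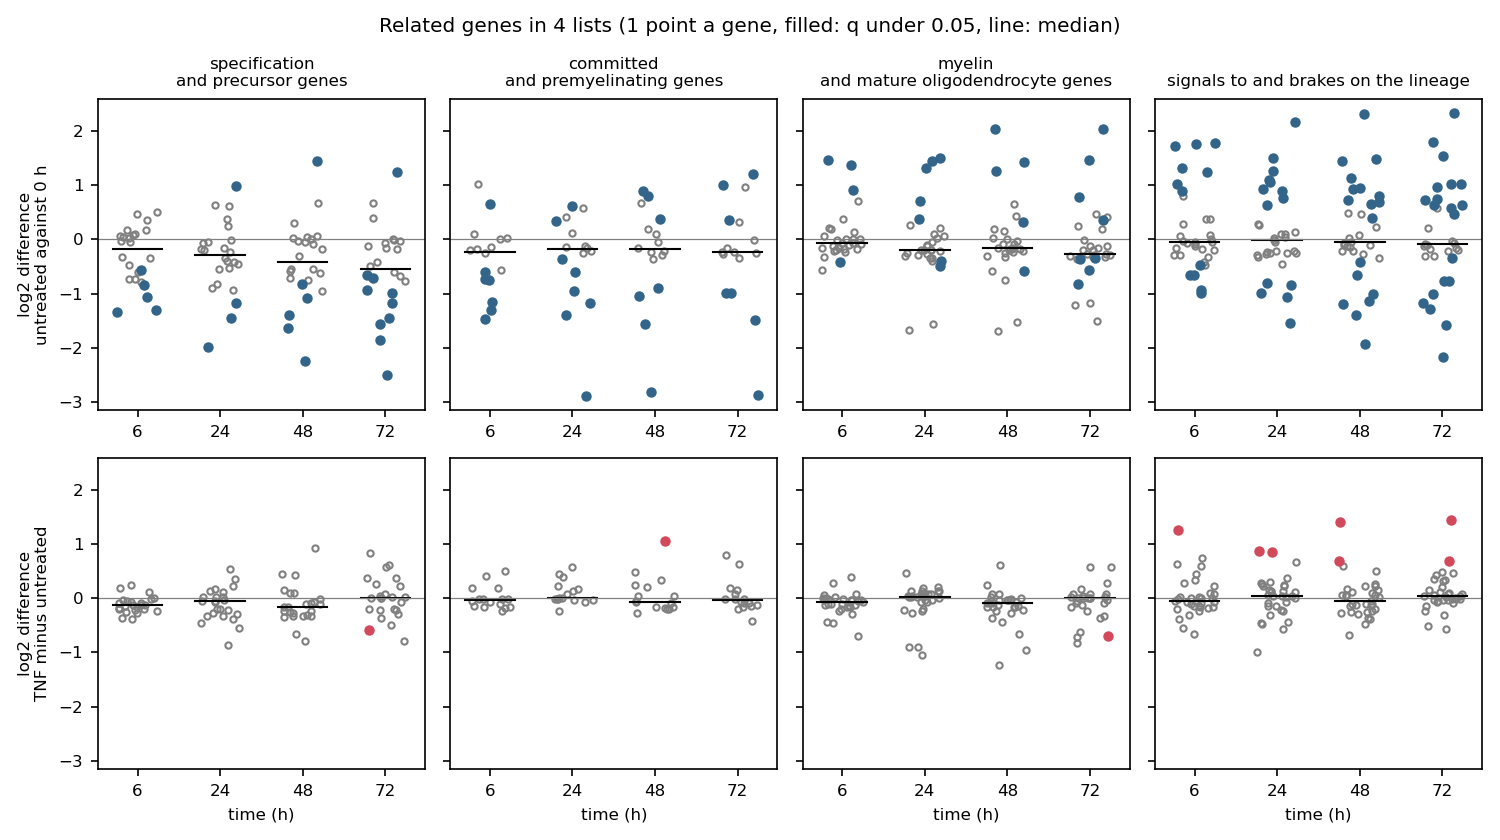
Log2 difference (vertical axis) of each measured gene of the 4 related lists at 6, 24, 48 and 72 h, for untreated NSPs against 0 h (top) and TNF-treated against untreated NSPs (bottom), with filled points for q under 0.05 and a line at the list's median. The medians of the precursor list lie below 0 in the top row, from −0.19 at 6 h to −0.55 at 72 h, and few points in the bottom row are filled.

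Among 16 committed and premyelinating genes, 6, 6, 4 and 4 fell in the order of the times, where 3.03%, 6.51%, 6.97% and 10.2% of all probe sets did, and 1, 2, 3 and 3 rose, where 4.64%, 10%, 8.99% and 12.6% did. *Sema5a*, a guidance protein, was at 10.78, 9.05 and 10.70 at 0 h and at 7.26, 7.40 and 7.26 at 72 h, and fell by 2.87 (SE 0.27, q = 9.38e-08). *Bcas1*, a marker of newly made oligodendrocytes, fell by 1.49 at 72 h (q = 0.000199), *Itpr2*, a calcium channel, fell by 0.98 (q = 7.9e-07) and *Fyn*, a kinase that acts in myelination, fell by 0.98 (q = 3.54e-08). *Tns3*, a focal adhesion protein, fell by 0.73 at 6 h (q = 0.0235) and was higher than at 0 h by 1.21 at 72 h (q = 0.00011), and *Enpp4* was higher by 1.01 (q = 0.000214). The 6 h call of *Tns3* was lost without any 1 of the untreated 6 h arrays or replicate 2 of 0 h. With only the arrays compared, 1 gene of this list fell at 6 h in place of 6, and with the replicate block 8 fell at 72 h in place of 4.

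Of 29 measured myelin and mature oligodendrocyte genes, 3, 5, 4 and 4 rose in the order of the times, beside 4.64%, 10%, 8.99% and 12.6% of all probe sets, and 1, 2, 1 and 4 fell, beside 3.03%, 6.51%, 6.97% and 10.2%. The count that rose at 72 h was thus near the share of all probe sets, and the list's median difference there was −0.27. Those that rose are not all myelin genes of the central nervous system. *Pmp22*, a protein of peripheral myelin, rose by 2.04 at 72 h (SE 0.524, q = 0.00449), *Nfasc*, an adhesion protein of nodes, by 1.47 (q = 9.38e-08) and *Lpar1*, a lysophosphatidic acid receptor, by 0.78 (q = 0.0118). *Opalin*, a protein of mature oligodendrocytes, was at 6.97, 8.68 and 7.31 at 6 h against 6.00, 6.41 and 6.17 at 0 h, a rise of 1.46 (SE 0.449, q = 0.0419) that was not seen at 24 h (−0.25, q = 0.371). This *Opalin* call was lost with the Benjamini-Hochberg adjustment, with cyclic loess and with only the arrays compared. It was also lost without replicate 1 or 3 of 0 h or replicate 2 or 3 of 6 h. Over all settings its values went down to 0.94 and q up to 0.264. *Lpar1* lost its 72 h call without replicate 3 of 72 h. *Car2*, a carbonic anhydrase, rose at 6 h by 0.91 (q = 0.00839) and *Aspa*, an enzyme that breaks down N-acetylaspartate, at 24 h by 1.45 (q = 0.0243), and neither passed the test at the other times. *Aspa* was not called without replicate 1 of 0 h or replicate 2 of 24 h. With only the arrays compared, 1, 2, 2 and 1 genes of the list rose, and *Pmp22* and *Lpar1* lost their 72 h calls (q = 0.0601 and 0.0756) and *Car2* its 6 h call (q = 0.275). With the replicate block, 5 genes of the list fell at 48 h in place of 1 and 10 at 72 h in place of 4, with no share over all probe sets computed under that setting.

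Of 33 measured genes that signal to the lineage or hold it back, 7, 9, 11 and 12 rose in the order of the times (4.64%, 10%, 8.99% and 12.6% of all probe sets) and 5, 5, 7 and 8 fell (3.03%, 6.51%, 6.97% and 10.2%). *Cxcr4*, a chemokine receptor that guides precursors, was at 9.58, 7.78 and 9.43 at 0 h and at 11.29, 11.34 and 11.16 at 72 h, and rose by 2.33 (SE 0.311, q = 8.39e-06). The growth factors *Pdgfc*, *Pdgfb* and *Nrg1* rose at 6 h by 1.78 (q = 2.67e-06), 1.32 (q = 0.000157) and 1.75 (q = 5.71e-06) and were called higher at 72 h too, by 0.96, 1.80 and 0.64 (q = 0.000535, 7.98e-07 and 0.0144), where *Nrg1* lost its call without replicate 1 of 0 h or replicate 2 of 72 h. The Notch effector *Hes5* fell by 2.17 at 72 h (q = 0.000342) and the Notch ligand *Jag1* fell by 1.58 (q = 0.000258). With only the arrays compared, 3, 7, 4 and 6 of these genes rose and 0, 2, 2 and 6 fell at the 4 times.

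With TNF, 1, 2, 3 and 4 of the 102 related genes were called in the order of the times, beside 0.326%, 0.863%, 1.04% and 1.15% of all probe sets. They were 6 genes in all, *Pdgfb*, *Nrg1*, *Igf1r* and *Tns3* higher and *Ptprz1* and *Nfasc* lower. *Pdgfb*, a growth factor for pericytes and precursors, was at 10.59, 10.02 and 9.76 with TNF at 6 h against 8.92, 8.96 and 8.74 untreated, and rose by 1.25 (SE 0.198, q = 0.00216) and at 24 h by 0.88 (q = 0.0328). *Nrg1*, a ligand of ERBB receptors on the lineage, rose by 0.86 with 24 h of TNF (q = 0.0395), by 1.40 with 48 h (q = 0.000292) and by 1.45 with 72 h (SE 0.223, q = 0.000899). At 72 h *Nrg1* was at 9.55 and 9.56 with TNF against 8.09, 8.65 and 7.57 untreated. *Igf1r*, the receptor for IGF1, rose by 0.69 at 48 h (q = 0.0214) and 0.68 at 72 h (q = 0.0487), and *Tns3* by 1.06 at 48 h (SE 0.202, q = 0.00688). *Ptprz1*, a phosphatase of precursors and astrocytes, fell by 0.59 at 72 h (SE 0.122, q = 0.0175), and *Nfasc* fell by 0.70 (SE 0.155, q = 0.0287). In each of these comparisons no TNF array overlapped with the untreated arrays.

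None of these 10 TNF differences changed its sign under another setting, but most calls could be lost. *Nrg1* kept its calls at 48 and 72 h under each setting tried, with differences from 1.29 to 1.55 and from 1.19 to 1.73. The calls of *Nrg1* at 24 h and of *Igf1r* and *Nfasc* at 72 h were lost without any 1 of the arrays compared. They were also lost without the arrays numbered 2, and those of *Igf1r* and *Nfasc* with cyclic loess. *Igf1r* at 48 h was lost without untreated replicate 1 or 3 or TNF replicate 2 or 3, and *Tns3* at 48 h without untreated replicate 1 or 3 or TNF replicate 2. Both were also lost with only the arrays compared. *Ptprz1* was lost without either TNF array, untreated replicate 2 or the arrays numbered 2. *Pdgfb* at 24 h was lost without any 1 of the arrays compared other than TNF replicate 1. It was also lost with only the arrays compared or without the arrays numbered 2. Over all settings, q reached 0.268 for *Nrg1* at 24 h, 0.177 for *Igf1r* and 0.137 for *Tns3* at 48 h, and 0.501 for *Pdgfb* at 24 h. *Pdgfb* at 6 h was lost with only the arrays compared or without the arrays numbered 2 (q up to 0.491). With the replicate block, 3 of the signalling genes in place of 1 were called higher with TNF at 6 h.

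**Figure D4:**
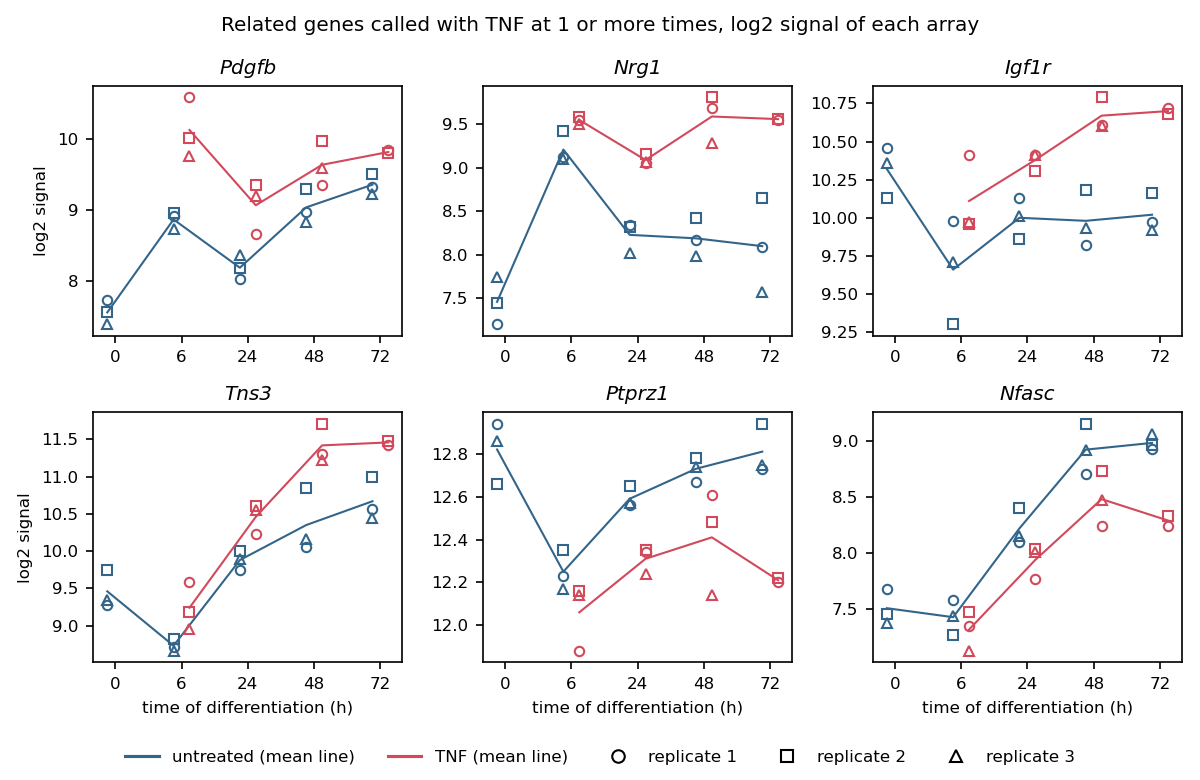
Log2 signal (vertical axis, a separate scale for each gene) of every array against time in hours (times drawn evenly spaced) for the 6 related genes called with TNF at 1 or more times, with replicates as circles, squares and triangles and lines through the means of untreated (blue) and TNF-treated NSPs (red). The means of *Nrg1* lie at 9.21 (untreated) and 9.55 (TNF) at 6 h and at 8.10 and 9.56 at 72 h.

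Astrocyte and cell cycle markers moved beside these genes. Of 8 astrocyte markers, *Gja1* fell with TNF at 24 h (by 1.10, SE 0.237, q = 0.0235) and 0 were called at the other times, with list medians of −0.14, −0.45, −0.55 and −0.50. Of 3 measured cell cycle markers, *Mki67* fell by 3.08 after 48 h (SE 1.09, q = 0.0447) and its difference was −2.99 after 72 h (q = 0.0323), and 0 were called with TNF. *Mki67* was at 7.71, 11.92 and 10.37 at 0 h and at 6.99, 7.34 and 6.44 at 48 h, so that replicate 1 moved least. The alternative settings were not run for *Mki67*. Of 6 microglia markers, *Cd68* was higher with TNF at 24 h by 2.13 (SE 0.411, q = 0.00949), while *Aif1* had group means between 6.23 and 6.47 in all 9 groups, below the 7.14 limit of dim probe sets. Their part in the levels of the 9 genes was not tested further.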

How the data were processed

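Total RNA of NSPs was hybridized to Affymetrix MoGene 1.0 ST arrays, and 26 arrays in 9 groups were used. The authors deposited log2 signals that they had made with RMA in the oligo package under R 3.3.1 (per the submitters' processing notes, which give neither the oligo nor the RMA version). Their normalization gives all arrays a common distribution, so a change shared by most transcripts would not be seen. The table holds no detection call.

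Probe sets were named from the platform annotation: 21789 had 1 gene symbol, 1621 several and 12146 none, and none with several was used. Differences were fitted with limma 3.58.1 in R 4.3.3 on 9 group means over 35556 probe sets, with q-values over all of them. The code of the fit was run on simulated data with noise drawn independently for each array. These lack the pattern shared by arrays of the same number, so the run does not show how the fit behaves with it. Intervals are 95% intervals. The number of arrays limits the precision. Replicates were not identical (0 identical pairs).

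The 9 genes, the related gene lists and the tests were chosen with earlier results of these data known. Named list genes are up to 6 called genes a list with the largest difference, by the probe set with the highest mean, and any further list gene called with TNF. Of 107 list genes, 5 were not analysed here. Alternatives were Benjamini-Hochberg adjustment, cyclic loess, a fit of only the arrays compared, a robust prior with an intensity trend, a replicate block, a filter on the dimmest 40% of probe sets, and each array left out. Leaving out all arrays numbered 2, and running the alternatives on the related lists, were chosen after seeing the data. Shares of all probe sets called were computed for the main fit only.

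Replicate numbers were taken to pair arrays where deviations from the group means correlated by over 0.1 in every pair of the same number, with 3 pairs. This held for TNF at 6 h (r = 0.674, 0.559 and 0.461) and for untreated 6 h (0.679, 0.596 and 0.503), 48 h (0.557, 0.299 and 0.475) and 72 h (0.14, 0.175 and 0.168) against 0 h. It did not hold for TNF at 24, 48 and 72 h or for untreated 24 h, where the lowest values were 0.0263, −0.0238, −0.0156 and −0.0545. The labels do not say what a number marks.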

Additional observations from a re-analysis of the deposited data

Results flagged for a closer look

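*Fgf2*, a growth factor that keeps precursors dividing, had TNF effects that differed between 6 and 72 h. At 6 h it was at 9.30, 8.40 and 8.78 with TNF and at 8.36, 8.06 and 8.24 untreated. At 72 h it was at 8.68 and 8.57 with TNF and at 9.36, 9.04 and 9.16 untreated. The TNF effect was thus 0.60 at 6 h (q = 0.15) and −0.56 at 72 h (q = 0.144), neither past the threshold alone, and the groups did not overlap at either time. The 72 h effect minus the 6 h effect was −1.17 on the log2 scale (SE 0.231, q = 0.0481 in limma). It lay between −1.38 and −0.93 under 18 other settings, and the call was lost in 13 of them, among them those that leave out any 1 of the arrays of these 4 groups other than TNF replicate 2 of 6 h. At 24 and 48 h the TNF effects were 0.05 and −0.27.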

How the results depend on the processing

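The 0 calls with TNF for the 9 genes held under each setting tried, as did the drops of *Olig1* at each time, of *Olig2* and *Cspg4* at 24, 48 and 72 h. For untreated 6 h, the count of 5 genes was 1 with only the arrays compared and 2 to 5 with 1 array left out. Differences that changed sign were small and not called. With cyclic loess *Cspg4* with TNF at 48 h was −0.00 and *Mbp* untreated at 24 h 0.03. Without the arrays numbered 2 the TNF differences of *Olig1* and *Olig2* at 48 h were 0.02 and −0.03. Those of *Sox10* and *Pdgfra* at 72 h, with a single TNF array left, were 0.05 and −0.22. *Cnp* untreated was −0.32 at 48 h and −0.16 at 72 h without the arrays numbered 2. With 1 array left out, the TNF differences at 6 h ran from −0.30 to 0.05 for *Olig2* and from −0.30 to 0.06 for *Cnp*. Those at 24 h ran from −0.00 to 0.22 for *Sox10*, from −0.01 to 0.15 for *Cspg4* and from −0.01 to 0.27 for *Mog*. Those at 48 h ran from −0.16 to 0.13 for *Olig1*, −0.26 to 0.26 for *Olig2*, −0.12 to 0.01 for *Sox10*, −0.32 to 0.23 for *Pdgfra*, −0.06 to 0.07 for *Cspg4* and −0.05 to 0.11 for *Mbp*, and those at 72 h from −0.21 to 0.05 for *Sox10* and −0.20 to 0.41 for *Pdgfra*. Untreated differences from 0 h ran from −0.31 to 0.07 at 6 h, −0.34 to 0.04 at 48 h and −0.35 to 0.04 at 72 h for *Sox10*, and from −0.65 to 0.05 at 48 h and −0.57 to 0.24 at 72 h for *Pdgfra*. They ran from −0.18 to 0.17 at 24 h, −0.27 to 0.08 at 48 h and −0.30 to 0.05 at 72 h for *Mbp*, from −0.28 to 0.15 at 6 h, −0.29 to 0.17 at 48 h and −0.31 to 0.12 at 72 h for *Mog*, and from −0.33 to 0.40 at 48 h and −0.21 to 0.51 at 72 h for *Cnp*. The cause of these changes was not tested. Signal near the background limits *Mog*. It also limits *Gpr17*, whose group means were 7.08 in untreated NSPs at 6 h and 6.86, 7.01 and 7.08 with TNF at 6, 24 and 48 h. These lay below the 7.14 limit of dim probe sets.

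With the replicate number as a block, the 9 genes had 5, 5, 4 and 4 calls in untreated NSPs in the order of the times and 0 with TNF. The additions were *Gpr17* at 48 h (q = 0.00608) and *Cnp* at 24 h (−0.48, q = 0.0365), a time at which the arrays share only a number, and the block changed no other call of the 9 genes.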
